A study of Mus musculus with 16 samples.

Results

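The 10 genes described here encode filaggrin-type proteins of the outer epidermis and other makers of the cornified envelope. They were taken by name, by a choice made with earlier results of these data known, and each matched 1 of the 55359 Ensembl identifiers that were counted. *Flg*, *Flg2*, *Hrnr*, *Rptn* and *Tchh* encode S100 fused-type proteins, *Loricrin* and *Ivl* encode envelope precursors, *Tgm1* and *Tgm3* encode transglutaminases, and *Casp14* encodes a protease that acts on filaggrin. All 10 passed the filter on low counts in both sexes.

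As keratinocytes move outward, they make profilaggrin, which is cut into filaggrin units that bundle keratin filaments and are later broken down into free amino acids that help the surface to hold water. In the same cells transglutaminases crosslink involucrin, loricrin and S100 fused-type proteins into an insoluble shell beneath the membrane, the cornified envelope. Trichohyalin, the product of *Tchh*, is known from the inner root sheath and medulla of the hair follicle rather than from the surface epidermis.

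RNA came from whole dorsal skin of wild-type C57Bl/6 mice (C57Bl/6N in the study's results) aged 8 weeks, and the labels place their follicles in telogen, when hairs rest. UVB-irradiated males and females, 4 of each, had received 3 exposures, given every other day, and their skin was collected on day 5, 6 h after the last exposure. The study's methods have the irradiated mice shaved, and whether no-UVB mice were shaved is not given in the sources used here, so the part of shaving in the UVB differences was not tested. The other groups were 4 no-UVB males and 4 no-UVB females. The labels number the samples 1 to 4 in each group without naming animals, litters or days, so p-values measure the spread between these samples, which are called mice here.

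Levels are given as CPM, the read count of a gene scaled by TMM to a library of common size. The libraries held 16495776 to 33404831 reads on genes. A gene was called changed at an adjusted p under 0.1 in edgeR's quasi-likelihood test. Markers of basal and suprabasal keratinocytes, fibroblasts, fat and muscle were all present, as in full-thickness skin. In such bulk tissue, fewer cells of a type and less RNA per cell cannot be told apart. The 6 fibroblast markers summed to 79100 to 86300 CPM in males without UVB and 28400 to 39300 after it, and to 19200 to 20500 and 12100 to 21900 in females. The collagens *Col1a1*, *Col1a2* and *Col3a1* made up most of this sum and fell by 1.66, 1.57 and 0.96 log2 units in males, and *Dcn* and *Pdgfra* fell by 0.28 and 0.19, while *Lum*, at -0.15, was not called. In females *Lum* rose by 0.43 and *Pdgfra* fell by 0.37, and *Dcn* (0.01) and the collagens (-0.42, -0.36 and -0.19) were not called. The 6 skeletal muscle markers summed to 18100 to 22600 CPM in males without UVB and 13200 to 16200 after it, and 5 of them fell, whereas in females they summed to 12000 to 17400 and 12900 to 18700. The 5 fat cell markers summed to 721 to 1080 and 548 to 877 CPM in males, where *Plin1* and *Cidec* fell, and to 730 to 1310 and 785 to 1510 in females. The part of these differences in the results was not tested, and TMM scaling that left out the 100 most abundant genes changed 2 member calls, that of *Tgm1* for the interaction and that of *Flg2* between irradiated males and females.

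Of these genes, 7 lie together in the epidermal differentiation complex, a cluster of genes for the outer epidermis, within 1.37 Mb of chromosome 3 (positions 91987578 to 93356384, GRCm39). *Tgm1* lies on chromosome 14 (55937466 to 55951383), *Tgm3* on chromosome 2 (129854257 to 129892319) and *Casp14* on chromosome 10 (78547825 to 78554138). The windows of 250 bases before the RefSeq start of each gene were searched on both strands for TGANTCA. This is a loose form of the AP-1 motif in which N is any base. A match was found in 5 of the 10 genes, against 6.75% of 32851 RefSeq promoters. The sequences of those 5 windows are shown because members on both sides of the response, those that rose strongly and those that hardly moved, carry the same motif. They are given 5′ to 3′ on the gene's strand with the AP-1 match in capitals (RefSeq promoter table of GRCm38, placed on GRCm39 by exact match). The *Flg* window is chr3:93180603-93180852, that of *Flg2* is chr3:93104330-93104579, that of *Rptn* is chr3:93300756-93301005, all on the plus strand, and those of *Loricrin* and *Ivl*, on the minus strand, are chr3:91990450-91990699 and chr3:92481043-92481292.
Flg: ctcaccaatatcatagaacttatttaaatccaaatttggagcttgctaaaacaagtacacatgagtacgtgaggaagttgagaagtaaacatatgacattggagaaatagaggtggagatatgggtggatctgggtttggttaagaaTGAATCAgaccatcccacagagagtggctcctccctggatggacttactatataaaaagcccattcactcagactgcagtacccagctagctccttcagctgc
Flg2: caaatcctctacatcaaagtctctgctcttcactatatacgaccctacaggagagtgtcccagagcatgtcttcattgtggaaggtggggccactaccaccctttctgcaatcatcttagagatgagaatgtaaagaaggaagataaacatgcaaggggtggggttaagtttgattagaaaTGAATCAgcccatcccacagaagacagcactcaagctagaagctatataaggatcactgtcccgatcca
Rptn: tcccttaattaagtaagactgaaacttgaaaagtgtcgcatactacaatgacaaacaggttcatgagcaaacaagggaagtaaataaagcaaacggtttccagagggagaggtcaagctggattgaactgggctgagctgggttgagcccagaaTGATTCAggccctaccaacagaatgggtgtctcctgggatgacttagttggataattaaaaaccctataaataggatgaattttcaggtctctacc
Loricrin: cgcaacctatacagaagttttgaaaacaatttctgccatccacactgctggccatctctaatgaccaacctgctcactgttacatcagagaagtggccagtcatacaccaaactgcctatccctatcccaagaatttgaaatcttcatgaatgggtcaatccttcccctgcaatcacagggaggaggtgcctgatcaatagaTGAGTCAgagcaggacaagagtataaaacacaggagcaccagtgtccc
Ivl: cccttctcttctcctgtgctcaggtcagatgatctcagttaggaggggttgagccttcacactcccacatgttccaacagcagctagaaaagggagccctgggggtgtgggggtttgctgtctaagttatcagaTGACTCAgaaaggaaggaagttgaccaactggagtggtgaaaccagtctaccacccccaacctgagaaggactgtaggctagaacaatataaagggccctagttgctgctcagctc

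The matches began 103 bases before the start in *Flg*, 69 in *Flg2*, 96 in *Rptn*, 48 in *Loricrin* and 116 in *Ivl*. In *Flg* and *Flg2* the motif and the next 14 bases were the same at 20 of 21 positions. The letters TATAAA stood in the windows of 6 genes, against 12.4% of all promoters. They began 53 bases before the start in *Flg*, 31 in *Hrnr* and *Rptn*, 29 in *Ivl*, 28 in *Tgm3* and 27 in *Loricrin*. CACCC, the core of Klf and Sp sites, stood in 7 of the 10, against 52% of all promoters. None of the 3 motifs was found in the *Tchh* window. A match is a description of these letters and not evidence of binding.

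Counting reads on these genes has a limit that differs between them. The longest transcripts of *Flg*, *Hrnr* and *Flg2* are built of repeats, and 71.3%, 67.3% and 55.5% of their windows of 100 bases occur more than once among the 10 genes. *Tchh* had 2.43% and the other 6 genes none. The deposited tables give 0 as the number of reads that matched several places of the genome in each mouse, so reads from such repeats may be missing from the counts of these genes. *Rptn* overlaps *Gm37857* on its own strand and *Gm37245* on the other, and *Tgm1* overlaps *Gm49067* on the other strand. Reads on the opposite strand were at most 6.94% of the reads of any of the 10 genes in any mouse, the highest share being that of *Tchh*.

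In males 8 of the 10 genes were higher after UVB, against 29.0% of the 16535 genes tested, and 1 was lower, against 30.5%. With the further demand of a log2 fold change past 1, the counts were 7 higher, against 4.08%, and 1 lower, against 3.31%. In females 6 of the 10 were higher, against 12.8% of 16883 genes, and 0 were lower, against 10.6%, also at an unadjusted p under 0.05 in edgeR and with DESeq2. Past a log2 fold change of 1, 5 were higher, against 1.63%. Over the 10 genes the middle log2 fold change was 2.41 in males and 1.09 in females, beside -0.02 and 0.00 over all genes tested. Upper quartile scaling moved the share of higher genes among all called in females from 54.7% to 44.6%, while the count of members higher stayed at 6 in females and went from 8 to 7 in males. The plot of CPM by mouse gives the 160 values.

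**Figure D1:**
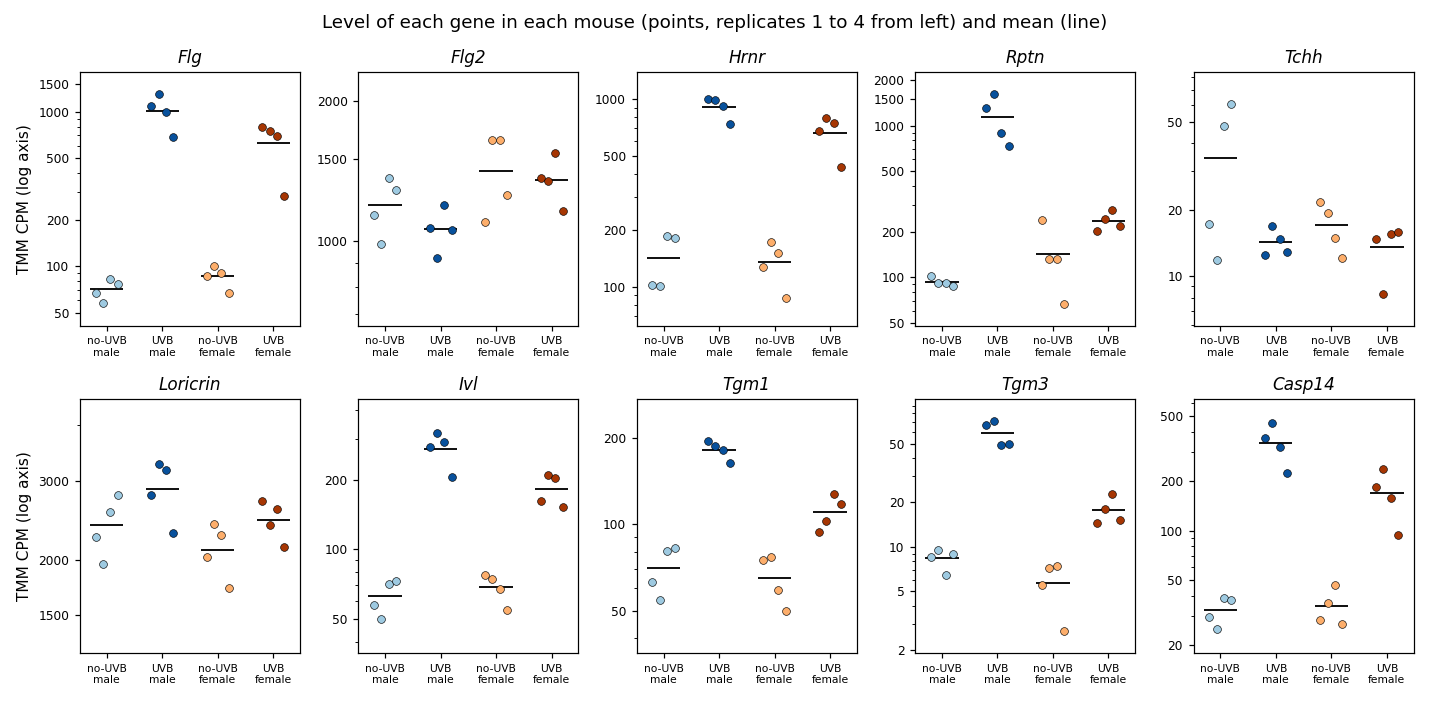
Each panel plots 1 gene, with TMM CPM on a logarithmic axis, a point for each mouse of the 4 groups and a line at the mean. All irradiated mice of both sexes lie above all no-UVB mice of their sex for *Flg*, *Hrnr*, *Ivl*, *Tgm1*, *Tgm3* and *Casp14*, while *Rptn* separates completely only in males and *Flg2*, *Loricrin* and *Tchh* overlap.

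*Flg* encodes profilaggrin and showed the largest fold of the 10 in males. The 4 no-UVB males held 67.2, 57.5, 82.3 and 76.5 CPM and the irradiated males 1090, 1290, 994 and 685. Females held 86.6, 100, 90.0 and 67.0 CPM without UVB and 794, 745, 693 and 286 with it. The lowest irradiated mouse, UVB female 4, was still above the highest no-UVB mouse of either sex. On the log2 scale the change was 3.86 ± 0.21 (SE) in males, a 14.5-fold difference with an adjusted p of 1.67e-06, and 2.88 ± 0.30 in females, 7.36-fold with an adjusted p of 0.000386.

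*Hrnr* encodes hornerin, a repeat protein of the same kind. Without UVB, males showed 102, 101, 187 and 183 CPM, and after UVB 997, 983, 924 and 740. The matching values for females were 128, 174, 152 and 86.9 CPM and 677, 797, 747 and 434. The groups did not overlap in either sex. This was a log2 difference of 2.69 ± 0.24 in males (adjusted p = 3.64e-05) and 2.30 ± 0.24 in females (adjusted p = 0.000436). The gap between the sexes was the smallest among the 6 genes that rose in both. That rank rests on no-UVB males 3 and 4. Without both, a setting chosen after seeing the data, the male value was 3.21. The male response then exceeded the female one by 0.87 log2 units, as for *Tgm1*.

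*Flg2* encodes filaggrin-2, which shares the repeat structure of the other 2, and it was called in neither sex. Its level was 1140, 989, 1370 and 1290 CPM in males without UVB and 1070, 923, 1200 and 1060 in irradiated males. No-UVB females had 1100, 1650, 1650 and 1260 CPM, and irradiated females had 1370, 1350, 1550 and 1160. The groups overlapped in both sexes. The log2 fold change was -0.15 in males, with a 95% interval of -0.40 to 0.10 and an adjusted p of 0.287, and -0.05 in females, with an interval of -0.40 to 0.30 and an adjusted p of 0.85. These intervals leave out a rise of the size seen for any of the 6 genes that rose in both sexes.

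The share of *Flg* beside *Flg2* in the same mouse is free of library scaling. Per 100 reads of *Flg2* males held 5.92 ± 0.09 reads of *Flg* without UVB (mean ± SD, n = 4) and 97.4 ± 32.2 with it, and females held 6.17 ± 1.16 and 45.6 ± 15.1. The 4 no-UVB males lay between 5.81 and 6.03, and the UVB-irradiated males between 64.9 and 140, and the counts of *Flg* exceeded those of *Flg2* in 2 of these 4 males.

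*Rptn* encodes repetin, an envelope precursor of the S100 fused type. The 4 no-UVB males held 102, 90.9, 91.6 and 86.9 CPM and the irradiated males 1300, 1620, 894 and 735. Females held 237, 132, 132 and 66.8 CPM without UVB and 203, 241, 277 and 218 with it. All irradiated males were far above every other mouse, whereas no-UVB female 1 exceeded 2 of the irradiated females. On the log2 scale the change was 3.63 ± 0.25 in males, a 12.4-fold difference with an adjusted p of 8.48e-06. In females it was 0.73 ± 0.30 and was not called (adjusted p = 0.135). Without no-UVB female 1, the female value was 1.09 and passed the test with an adjusted p of 0.0157. It also passed narrowly with all 16 mice in 1 fit (0.72, adjusted p = 0.0984).

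*Tchh* was the lowest of the 5 S100 fused-type genes in reads, and it was uneven between the no-UVB males. Without UVB, males showed 17.3, 11.9, 47.9 and 60.3 CPM, and after UVB 12.5, 16.9, 14.8 and 12.9. The matching values for females were 21.7, 19.3, 14.9 and 12.1 CPM and 14.7, 8.36, 15.5 and 15.9. No-UVB males 3 and 4 were above all other mice, and the other 2 no-UVB males, at 17.3 and 11.9, lay just above and just below the range of the irradiated males. The fitted log2 fold change was -1.24 ± 0.53 in males (adjusted p = 0.0854) and -0.32 ± 0.23 in females (adjusted p = 0.381). In males the test was passed in only 2 of the 8 fits that left out 1 mouse. It was lost without any of the 4 UVB-irradiated males and without no-UVB male 3 or 4, where the values ran from -1.52 to -0.84 over the 8 fits and the adjusted p reached 0.189. Without both of those no-UVB males, a setting chosen after seeing the data, the male value was 0.00 with an adjusted p of 0.999.

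The summed markers of the growing follicle were high in the same 2 mice. The 8 inner root sheath keratins summed to 49.4 and 88.8 CPM in no-UVB males 3 and 4, to 3.68 and 3.04 in no-UVB males 1 and 2, and to between 2.80 and 7.67 in the 12 mice of the other groups. *Krt71*, a keratin of the inner root sheath, averaged 15.3 ± 19.1 CPM in males without UVB against 0.20 ± 0.09 after it. *Krt28*, another of the 8, was not higher in no-UVB males as a group. It averaged 4.06 ± 1.88 CPM there, 2.52 in irradiated males, and 4.92 and 4.69 in females without and with UVB. Outside the no-UVB males *Krt28* was most of the sum, which averaged 3.38 CPM in irradiated males and 5.90 and 6.08 in females. The 7 hair shaft keratins summed to 9.01 and 10.8 CPM in no-UVB males 3 and 4 and to at most 1.08 in every other mouse. The labels give telogen for all 16 mice. The part of these follicle transcripts in the *Tchh* values was not tested. Nor was their part in *Hrnr*, which was also higher in these 2 mice than in no-UVB males 1 and 2.

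**Figure D2:**
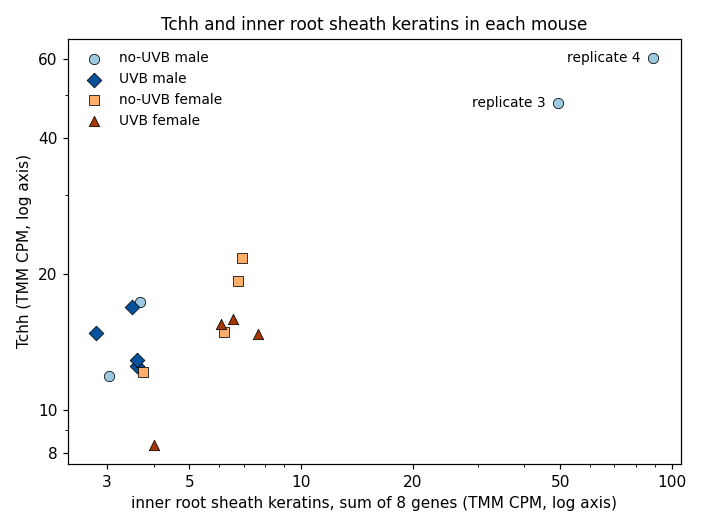
Each point is 1 mouse, with the sum of 8 inner root sheath keratins on the horizontal axis and *Tchh* on the vertical axis, both in TMM CPM on logarithmic axes, and the 4 groups marked by symbol. No-UVB males 3 and 4 stand apart on both axes, and the other 14 mice lie below 22 CPM of *Tchh*.

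*Loricrin*, the main protein of the mature envelope, was the most abundant of the 10 genes in each group and changed little. Its level was 2250, 1960, 2560 and 2790 CPM in males without UVB and 2790, 3270, 3170 and 2290 in irradiated males. No-UVB females had 2030, 2400, 2270 and 1730 CPM, and irradiated females had 2700, 2390, 2600 and 2140. The groups overlapped in both sexes. This was a log2 difference of 0.29 ± 0.14 in males, which passed the test by a narrow margin (adjusted p = 0.0989), and 0.23 ± 0.14 in females (adjusted p = 0.306). The male call was lost without any of UVB-irradiated males 1, 2 and 3 or no-UVB males 1 and 2, with values of 0.22 to 0.39 over the 8 fits and an adjusted p of up to 0.226. It was also lost with upper quartile scaling (0.21, adjusted p = 0.207) and with all 16 mice in 1 fit (0.27, adjusted p = 0.127), which leaves 7 members higher in males.

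*Ivl* encodes involucrin, an early scaffold of the envelope. The 4 no-UVB males held 57.5, 50.1, 71.0 and 72.8 CPM and the irradiated males 276, 317, 289 and 205. Females held 77.8, 74.6, 67.5 and 54.7 CPM without UVB and 161, 210, 204 and 153 with it. The groups did not overlap in either sex. The log2 fold change was 2.14 ± 0.16 in males (adjusted p = 1.03e-05) and 1.41 ± 0.14 in females (adjusted p = 0.000229). The promoters of *Ivl* and *Loricrin* each hold an AP-1 match and a TATAAA, as shown above, and the male response was 4.39-fold for *Ivl* and 1.23-fold for *Loricrin*.

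*Tgm1* encodes the membrane-bound transglutaminase of keratinocytes. Without UVB, males showed 62.8, 54.6, 80.9 and 82.7 CPM, and after UVB 195, 187, 182 and 163. The matching values for females were 75.0, 76.7, 59.0 and 49.8 CPM and 93.8, 103, 127 and 118. The groups did not overlap in either sex, and the rise was the smallest of the 6 genes that rose in both. On the log2 scale the change was 1.39 ± 0.13 in males (adjusted p = 1.85e-05) and 0.77 ± 0.15 in females (adjusted p = 0.00709).

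*Tgm3* encodes a soluble transglutaminase that also acts in the hair follicle, and it had few reads, down to 53 in 1 no-UVB female. Its level was 8.48, 9.53, 6.45 and 9.0 CPM in males without UVB and 67.2, 71.4, 48.8 and 49.3 in irradiated males. No-UVB females had 5.50, 7.25, 7.40 and 2.68 CPM, and irradiated females had 14.5, 18.0, 22.8 and 15.3. The highest irradiated female was below the lowest irradiated male. This was a log2 difference of 2.85 ± 0.16 in males (adjusted p = 1.59e-06) and 1.62 ± 0.27 in females (adjusted p = 0.00449).

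*Casp14* encodes caspase-14, which takes part in the late breakdown of filaggrin. The 4 no-UVB males held 29.7, 25.0, 38.9 and 37.9 CPM and the irradiated males 369, 454, 326 and 225. Females held 28.6, 36.2, 46.2 and 26.7 CPM without UVB and 185, 238, 158 and 93.5 with it. The groups did not overlap in either sex. The log2 fold change was 3.41 ± 0.25 in males (adjusted p = 1.62e-05) and 2.30 ± 0.28 in females (adjusted p = 0.000779).

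The male calls of *Flg*, *Hrnr*, *Rptn*, *Ivl*, *Tgm1*, *Tgm3* and *Casp14* and the female calls of *Flg*, *Hrnr*, *Ivl*, *Tgm1*, *Tgm3* and *Casp14* held in each of the 8 fits that left out 1 mouse and in each of the 10 other settings. The groups of UVB-irradiated and no-UVB mice did not overlap for 7 of the 10 genes in males, against 22.9% of all genes, and for 6 in females, against 11.1%.

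**Figure D3:**
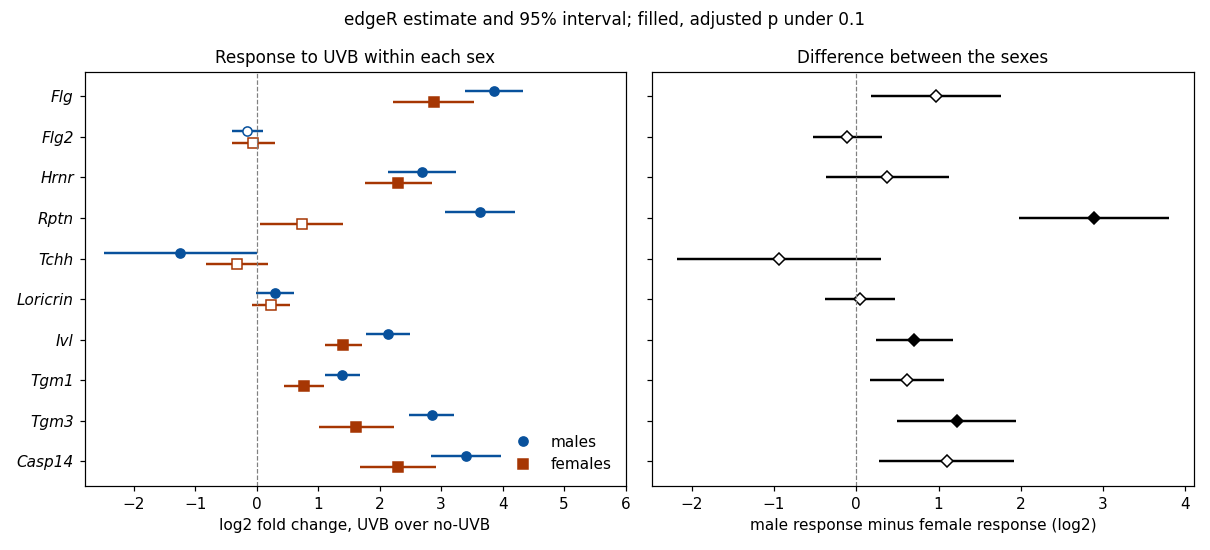
The left panel plots the log2 fold change of UVB over no-UVB in males (circles) and females (squares), and the right panel the male response minus the female response, with 95% intervals from edgeR and filled symbols where the adjusted p is under 0.1. *Flg*, *Rptn* and *Casp14* lie furthest right in males, *Rptn* shows the widest gap between the sexes, and *Flg2* and *Loricrin* lie near 0 in both.

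Whether males and females responded unequally was tested as an interaction over all 16 mice. For 3 of the 10 genes the male log2 fold change exceeded the female one, against 2.75% of 17406 genes, and for 0 it was lower, against 4.25%, also at an unadjusted p under 0.05 in edgeR and with DESeq2. Over all genes TMM scaling gave 478 higher and 740 lower interaction calls, DESeq2's size factors gave 687 and 641, and TMM without the 100 most abundant genes gave 782 and 624, so the direction of the background depends on scaling. The 3 member calls were present under each of these scalings.

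*Rptn* had the widest gap, with a male response 2.89 ± 0.43 log2 units above the female one (adjusted p = 0.0066). This call held in all 16 fits that left out 1 mouse and in all 9 other settings. *Tgm3* followed at 1.22 ± 0.34 (adjusted p = 0.0646) and *Ivl* at 0.71 ± 0.22 (adjusted p = 0.0901). The *Tgm3* call was kept in 8 of the 16 fits and was lost without UVB-irradiated or no-UVB males 1 or 2, UVB-irradiated females 1 or 2, or no-UVB females 2 or 3, with an adjusted p of up to 0.135. The *Ivl* call was kept in 6 of the 16 and was lost without UVB-irradiated males 1, 2 or 3, no-UVB males 1 or 2, UVB-irradiated females 1 or 4, or no-UVB females 1, 2 or 3, with an adjusted p of up to 0.181.

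For the others the interval of the difference shows what the data leave possible. The male minus female response was 0.97 for *Flg* (95% interval 0.18 to 1.76, adjusted p = 0.154), 1.10 for *Casp14* (0.27 to 1.92, adjusted p = 0.13) and 0.61 for *Tgm1* (0.17 to 1.06, adjusted p = 0.117). Each of these intervals lies above 0 before adjustment and fails the threshold after it. With DESeq2's Wald test *Tgm1* and *Casp14* passed, at adjusted p values of 0.0436 and 0.0303, and with TMM scaling that left out the 100 most abundant genes *Tgm1* passed at 0.0931. For *Hrnr* the difference was 0.38 (-0.37 to 1.13), for *Flg2* -0.11 (-0.53 to 0.31), for *Loricrin* 0.05 (-0.38 to 0.47) and for *Tchh* -0.94 (-2.18 to 0.30).

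Before irradiation none of the 10 genes differed between males and females at an adjusted p under 0.1, where 7.21% of all genes were higher and 4.58% lower in males. DESeq2 also called 0, and at an unadjusted p under 0.05 only *Tchh* was higher in males in edgeR. After UVB 6 of the 10 were higher in males, against 12.8%, and 1 was lower, against 12.5%. With upper quartile scaling 37.7% of all called genes were higher in irradiated males in place of 50.6%, and the member counts did not change.

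The 6 were *Rptn*, *Tgm3*, *Casp14*, *Tgm1*, *Flg* and *Ivl*. *Rptn* was 4.84-fold higher in irradiated males than in irradiated females (adjusted p = 0.000441), *Tgm3* 3.35-fold (adjusted p = 0.000282) and *Casp14* 2.03-fold (adjusted p = 0.0193). *Tgm1* was 1.65-fold higher (adjusted p = 0.0052), *Flg* 1.61-fold (adjusted p = 0.08) and *Ivl* 1.49-fold (adjusted p = 0.0191). For *Rptn*, *Tgm1* and *Tgm3* the irradiated groups did not overlap, against 11.5% of all genes. The *Flg* call was lost without UVB-irradiated female 4 or UVB-irradiated males 1, 2 or 3, and with each gene of at least 1 count tested (adjusted p = 0.226). *Flg2* was lower in irradiated males, at -0.35 log2 units (adjusted p = 0.0949), a call kept in 8 of the 16 fits that left out 1 mouse. It was lost without UVB-irradiated males 1, 2 or 4, UVB-irradiated females 1, 2 or 3, or no-UVB males 1 or 4, with an adjusted p of up to 0.228. It was also lost under 5 of the 9 other settings, where the adjusted p reached 0.13.

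Levels were compared between genes per kilobase of exon. In no-UVB males *Loricrin* led with 1220 ± 184 CPM per kb (mean ± SD, n = 4), followed by *Flg2* at 57.5 ± 8.02 and *Ivl* at 32.7 ± 5.69. *Rptn* (22.4), *Tgm1* (20.9), *Casp14* (13.7), *Hrnr* (12.8), *Tchh* (5.90) and *Flg* (3.77) came next, each overlapping its neighbour in the order, and *Tgm3* was last at 2.02 CPM per kb. After UVB *Loricrin* still led in males at 1470 ± 225. *Rptn* now stood second at 274 ± 96.1, *Casp14* at 143 ± 39.6 and *Ivl* at 141 ± 24.8, with overlapping mice between these neighbours. *Hrnr* followed at 81.4 ± 10.6. *Tgm1* (54.0), *Flg* (53.9) and *Flg2* (51.0) overlapped, so that *Flg2* had moved from the second place to the eighth while its own level hardly changed.

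In no-UVB females the order was close to that in males, with *Loricrin* at 1070 ± 149 CPM per kb, *Flg2* at 68.1 ± 13.3, *Ivl* at 35.7 ± 5.32 and *Rptn* at 34.3 ± 17.0. After UVB *Ivl* (94.6 ± 15.2), *Casp14* (70.2 ± 25.0), *Flg2* (65.2 ± 7.69), *Hrnr* (59.3 ± 14.4) and *Rptn* (56.6 ± 7.80) formed a run in which each gene overlapped the next. *Flg* (33.4 ± 12.4) and *Tgm1* (32.8 ± 4.47) followed, and *Tgm3* (4.26 ± 0.90) and *Tchh* (2.34 ± 0.61) were last. Since repeats can hide reads of *Flg*, *Flg2* and *Hrnr*, their places in these orders may be too low.

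**Figure D4:**
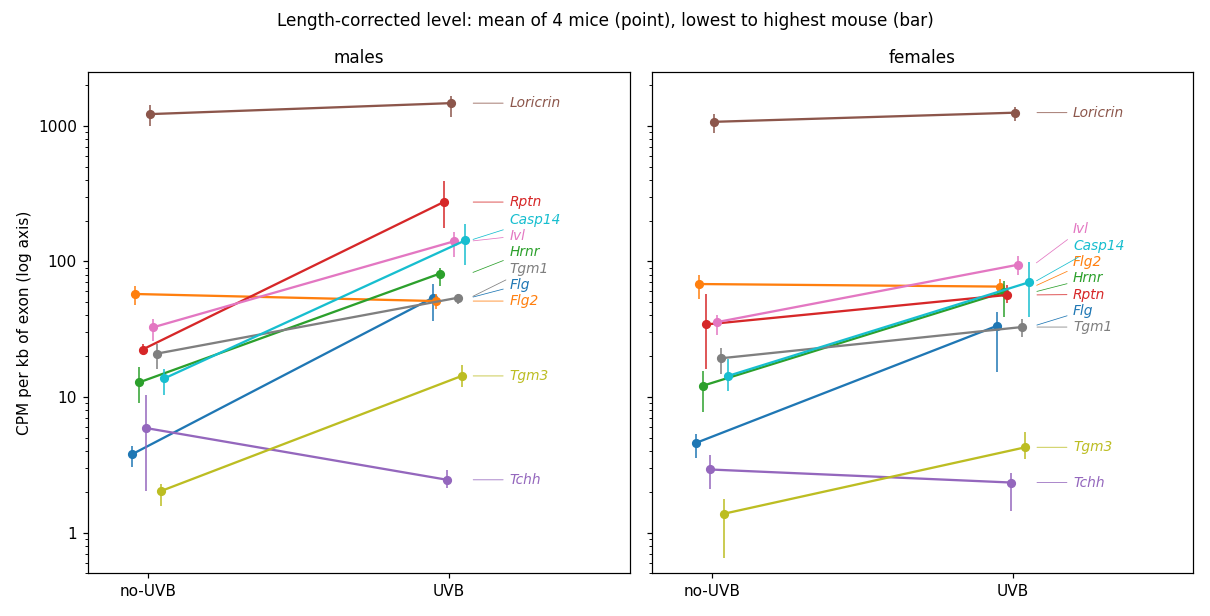
Mean CPM per kb of exon in 4 mice, on a logarithmic axis, without and with UVB, for males (left) and females (right), with bars from the lowest to the highest mouse. *Loricrin* stays on top at 1070 to 1470, *Flg2* stays near 60, and *Rptn* reaches 274 in irradiated males against 56.6 in irradiated females.

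Together the 10 genes took 0.393 ± 0.065% of the reads on genes in males without UVB and 0.756 ± 0.111% with it, and 0.438 ± 0.068% and 0.587 ± 0.073% in females. The make-up of this sum shifted. *Loricrin* fell from 58.3% of it to 36.7% in males and from 51.8% to 42.4% in females, values that describe shares and not levels. *Flg* went from 1.73% to 12.8% in males and from 2.11% to 10.5% in females, and *Rptn* from 2.32% to 14.1% and from 3.51% to 4.07%. Per 100 reads of *Loricrin* males held 3.97 ± 0.75 reads of *Rptn* without UVB and 39 ± 10.5 with it, and females 6.72 ± 3.43 and 9.63 ± 1.43.

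The summed markers of differentiating epidermis were higher after UVB, and in bulk skin more such cells and more RNA per cell cannot be told apart. The 6 suprabasal keratinocyte markers summed to 7500 to 11100 CPM in males without UVB and 18100 to 23500 after it, and to 7040 to 10400 and 11200 to 14600 in females, and 5 of the 6 were called higher in males and 4 in females, against 29.0% and 12.8% of all genes. *Krt1*, a keratin of the spinous layer, rose by 3.13 log2 units in males, *Dsg1a* rose by 0.44 and *Krt77* fell by 0.38. In males mean CPM went from 835 to 7220 for *Krt1* and from 4370 to 10100 for *Krt10*. In females they went from 590 to 2320 and from 3810 to 5800. These 2 keratins made up most of the rise of the sum in both sexes. The 6 basal markers summed to 6160 to 8950 and 8470 to 11900 CPM in males and to 5190 to 8070 and 4650 to 7200 in females. They moved in both directions: *Krt14* rose by 1.43 log2 units in males and 0.47 in females, and *Krt15* fell by 1.25 and 1.11. *Krt2*, a suprabasal keratin, was near 0 without UVB, at a mean of 0.81 CPM in males and 1.01 in females, and reached 16.1 and 9.15 after it. The part of these shifts in the results was not tested, but the level of each gene per 1000 CPM of suprabasal markers of the same mouse can be given.

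Because the marker sum averaged 2.26 times its no-UVB mean in irradiated males and 1.47 times in irradiated females, a gene with unchanged CPM gives a ratio of 0.443 in males and 0.681 in females on this scale. The median over all genes tested was 0.424 and 0.668. Without overlap between the groups, 1.48% of all genes were higher and 87.8% lower in males, and 1.08% were higher and 44.9% lower in females.

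Per 1000 CPM of suprabasal markers, *Flg* stood at 7.42 ± 0.21 without UVB and 46.5 ± 7.21 with it in males, a ratio of 6.27, and at 10.1 ± 1.30 and 49.8 ± 17.9 in females, a ratio of 4.93. *Hrnr* gave ratios of 2.86 in males and 3.36 in females, and *Casp14* of 4.59 and 3.38. Without overlap between the groups, *Flg*, *Hrnr*, *Casp14*, *Ivl* and *Tgm3* were higher after UVB on this scale in both sexes. *Rptn* rose 5.20-fold on it in males, while in females it stood at 17.0 ± 9.76 and 18.7 ± 1.31, a ratio of 1.10 with overlap. *Tgm1* gave a ratio of 1.15 in males, higher without overlap, and of 1.14 in females, with overlap. A gene with unchanged CPM gives 0.443 and 0.681. *Loricrin* stood at 251 ± 13.6 and 133 ± 8.06 in males, a ratio of 0.53, and *Flg2* at 125 ± 4.92 and 49.7 ± 8.21, a ratio of 0.398, values near that of a gene with unchanged CPM. In females *Flg2* stood at 166 ± 17.1 and 108 ± 4.36, and *Loricrin* at 249 ± 22.4 and 197 ± 18.8, with overlap. *Tchh* gave ratios of 0.197 in males and 0.537 in females, and the male ratio was 0.379 without no-UVB males 3 and 4. No test was applied to these ratios.

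**Figure D5:**
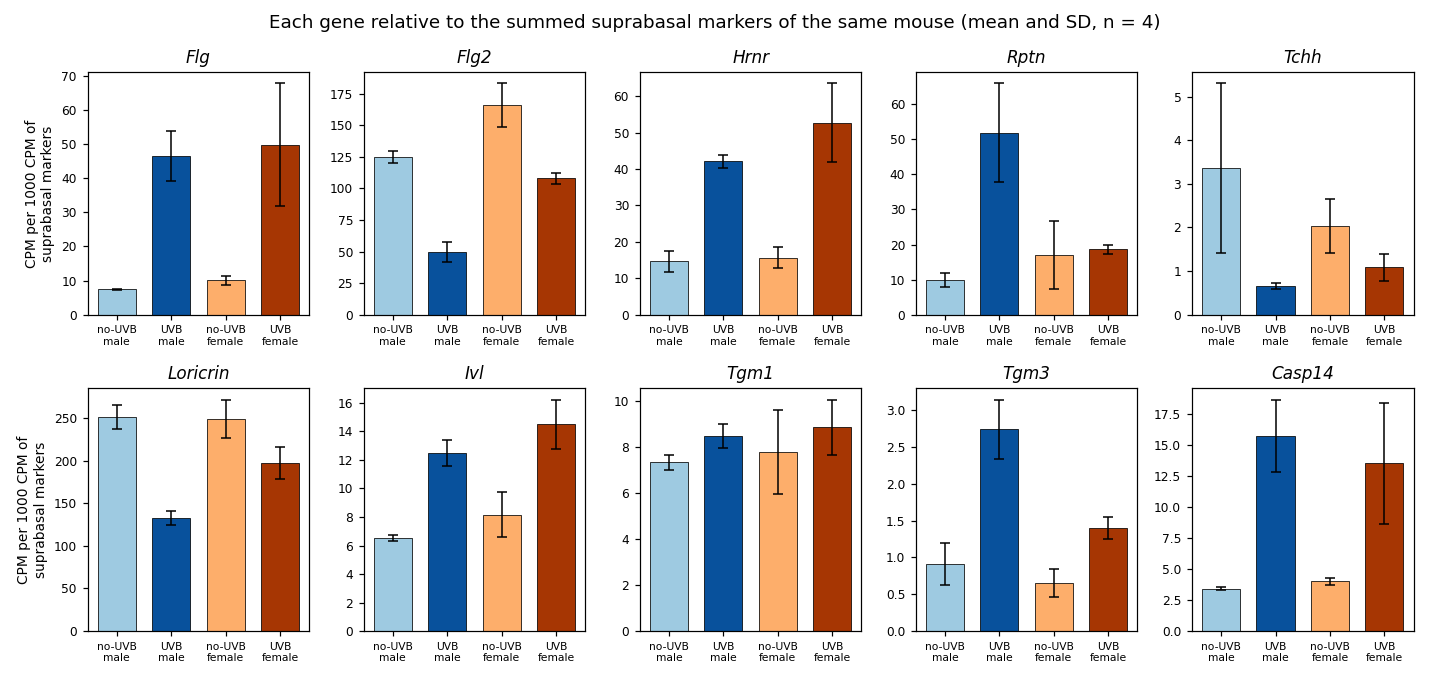
Bars give the mean and lines the SD of 4 mice per group for each gene's CPM per 1000 CPM of 6 summed suprabasal keratinocyte markers in the same mouse, on axes that start at 0. *Flg*, *Hrnr*, *Ivl*, *Tgm3* and *Casp14* are higher with UVB in both sexes. *Tgm1* has ratios of 1.15 in males and 1.14 in females, and *Loricrin* stands at 133 against 251 in males. A gene with unchanged CPM gives a ratio of 0.443 in males because the marker sum in the denominator is higher after UVB.

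Within groups, the deviations of the 10 genes can be set beside those of all genes. Pearson's r of the deviations from the group means of log2 CPM, over 16 mice, was positive in 44 of 45 pairs, with a median of 0.49, where over all pairs of the 17406 genes tested 49.9% were positive and the median was 0.00. The highest was 0.89, between *Flg* and *Casp14*, and *Hrnr* stood at 0.83 with both *Ivl* and *Loricrin*. The lowest was -0.21, between *Flg2* and *Rptn*. UVB female 4 was the lowest irradiated female for *Flg*, *Hrnr*, *Flg2*, *Loricrin*, *Ivl* and *Casp14* but not for *Rptn*, *Tgm1*, *Tgm3* or *Tchh*. These values are descriptions, since the genes share libraries and scaling.

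Genes that act on filaggrin were mostly higher after UVB as well. Of 13 genes listed for its processing and breakdown, 12 were tested in males and 10 rose and 1 fell, against 29.0% and 30.5% of all genes, with a median log2 fold change of 0.71 against -0.02 over all genes. *Asprv1*, a protease that cuts profilaggrin linkers, rose by 1.88 ± 0.17 in males (adjusted p = 1.05e-05) and by 1.26 ± 0.20 in females (adjusted p = 0.00315). *Blmh*, bleomycin hydrolase, which takes part in the release of free amino acids, rose by 1.78 ± 0.12 in males (adjusted p = 2.31e-06) and by 1.37 ± 0.14 in females (adjusted p = 0.000303). *Padi1*, an enzyme that turns arginine of filaggrin into citrulline, was low, with 0.35 ± 0.27 CPM in males without UVB and 3.26 ± 1.46 after it, which is a log2 rise of 3.26 (adjusted p = 0.000619).

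In females 11 genes of this list were tested, 7 rose and 1 fell, against 12.8% and 10.6% of all genes, with a median of 0.51. *Klk5*, a kallikrein protease of the outer epidermis, rose by 1.26 ± 0.14 in females (adjusted p = 0.000443) and by 1.39 ± 0.15 in males (adjusted p = 7.38e-05). *Furin*, a proprotein convertase that can cut the start of profilaggrin, responded more in males by 0.38 ± 0.09 log2 units (adjusted p = 0.0359). *Pcsk6*, a related convertase, fell by 0.56 in males and by 0.21 in females, and this fall was larger in males, with a difference of -0.36 ± 0.10 (adjusted p = 0.0511). These were the only interaction calls among 12 genes tested, 1 higher against 2.75% of all genes and 1 lower against 4.25%.

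Of 14 other envelope and scaffold genes, 12 of 13 tested rose in males and 10 of 12 in females, and the other 1 and 2 were not called. Of all genes tested 29.0% rose in males and 12.8% in females. The median log2 fold change was 1.03 and 0.60. *Cnfn*, cornifelin, rose by 2.56 ± 0.23 in males (adjusted p = 4.74e-05) and 2.07 ± 0.13 in females (adjusted p = 4.07e-05), from 49.8 to 288 CPM and from 39.8 to 166 CPM. *Krtdap*, a gene of differentiating keratinocytes, rose by 1.11 ± 0.12 in females (adjusted p = 0.000424) and by 1.19 ± 0.13 in males (adjusted p = 2.65e-05). *Crnn* and *Tchhl1*, further S100 fused-type genes, stayed below 5 CPM on average in each group. *Crnn* had a male log2 fold change of 2.56 ± 1.09 (adjusted p = 0.0876), and *Tchhl1* of 1.92 ± 0.82 in males (adjusted p = 0.085) and 2.01 ± 0.52 in females (adjusted p = 0.0268).

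Of 6 other transglutaminases 4 were tested. In males 1 rose and 3 fell, against 29.0% and 30.5% of all genes, and in females 2 fell, against 10.6%, and 2 were not called. *Tgm7* fell by 1.95 log2 units in males (adjusted p = 0.000217) and by 1.45 in females (adjusted p = 0.0122), from a mean of 6.36 and 6.55 CPM to 1.65 and 2.41. *Tgm2*, a widely expressed tissue transglutaminase, fell by 0.51 in males (adjusted p = 0.000567) and was not called in females (-0.31, adjusted p = 0.363). *F13a1*, the factor XIII subunit made by macrophages, fell by 0.50 in males (adjusted p = 0.00934) and by 0.55 in females (adjusted p = 0.0978). *Tgm5*, an epidermal enzyme, rose by 0.66 ± 0.20 in males (adjusted p = 0.0208) and was not called in females (0.19, adjusted p = 0.448).

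Of 19 regulators of epidermal differentiation, all were tested, 14 rose in males, against 29.0% of all genes, and 6 in females, against 12.8%, and the other 5 and 13 were not called. The median log2 fold change was 0.35 in males and 0.26 in females, well below that of the 10 envelope genes. *Ovol1*, a zinc finger repressor, rose by 1.08 ± 0.22 in males (adjusted p = 0.00372) and 0.61 ± 0.15 in females (adjusted p = 0.0213). *Dlx3*, a homeobox factor of the outer epidermis, rose by 0.88 ± 0.11 in males (adjusted p = 7.01e-05) and 0.77 ± 0.16 in females (adjusted p = 0.00869). *Prdm1* rose by 0.75 ± 0.11 in males (adjusted p = 0.000177) and by 0.35 ± 0.11 in females (adjusted p = 0.0559). *Hopx*, a homeodomain protein of differentiated keratinocytes, rose by 0.69 ± 0.10 in males (adjusted p = 0.000233) and by 0.63 ± 0.16 in females (adjusted p = 0.025).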

How the data were processed

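RNA-seq of whole dorsal skin from 16 mice was used. The authors extracted RNA with TRIzol, enriched poly(A) RNA, prepared libraries with a directional kit and aligned reads to GRCm39 with STAR (version not given in the sources used here). They deposited raw counts, in whole numbers, for every Ensembl gene and mouse, and the count of the kit's strand was used. The separate count of reads at several places was 0 in each file. The 10 genes and all gene lists were chosen with earlier results of these data known.

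Of the 55359 identifiers, 54749 were found in GENCODE M39. Libraries held 16495776 to 33404831 reads on genes. Counts were fitted in edgeR 4.0.16 (R 4.3.3) with filterByExpr, TMM and the robust quasi-likelihood test, in the 8 mice of each sex for the response and in all 16 for the interaction and the sex contrasts, with Benjamini-Hochberg adjustment over all genes tested. Biological variation was 0.107 in males and 0.139 in females, as a coefficient. Simulated data with 200 genes changed by 2 log2 units returned 195 in males, with 20 false calls, 196 in females, with 14, and 194 for the interaction, with 12. Libraries of a group differed by more than sampling noise (chi-square per degree of freedom of 10.5 to 110). The correlation of deviations between same-numbered no-UVB and UVB mice of a sex was -0.115 to 0.217, over 0.1 in 2 of 8 pairs. Differently numbered mice were not compared, so this cannot show whether the numbers mark a shared litter or day.

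Values in the text are all 10 genes in each mouse. From each list the text names the 3 genes with the largest absolute log2 fold change among those called in males, the 3 in females, and any called for the interaction. For likeness it names the 2 genes with the highest correlation of log2 CPM (prior count 2) among those with a mean of at least 10 CPM. *Krt71*, *Krt28*, *Krt1*, *Krt2*, *Krt10*, *Krt77*, *Dsg1a*, *Krt14* and *Krt15* were chosen after values were seen. The same holds for the fibroblast, muscle and fat cell markers and the values per suprabasal marker. Alternatives were counts without regard to strand, DESeq2 1.42.0 size factors or Wald test, upper quartile scaling, TMM without the 100 most abundant genes, a filter of 1 count in all or of 10 counts in each mouse, a replicate block, thinning to the smallest library (seed 1), all 16 mice in 1 fit, stricter thresholds, apeglm 1.24.0 shrinkage and leaving out each mouse. Leaving out no-UVB males 3 and 4 together was added after seeing the data. Promoter windows came from RefSeq, and proteins were not used here. Figures were drawn in matplotlib 3.10.9.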

Additional observations from a re-analysis of the deposited data

Results flagged for a closer look

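*Rptn*, *Ivl* and *Tgm3* stand out because their response to UVB differed between males and females by the interaction test itself. The male response exceeded the female one by 2.89 log2 units for *Rptn*, 0.71 for *Ivl* and 1.22 for *Tgm3*.

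*Tchh* in UVB female 2, at 8.36 CPM, lay far below the other 3 irradiated females by Dixon's criterion. It was the only such value among 40 groups of 4 mice examined, of which chance marks about 1 in 20. The 8 inner root sheath keratins summed to 4.0 CPM in this mouse and to 6.09 to 7.67 in the other irradiated females. Most of this sum in irradiated females was *Krt28*, with a mean of 4.69 of 6.08 CPM.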

How the results depend on the processing

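Of 510 member values recomputed under settings other than leaving out 1 mouse, 481 kept their direction and their side of the threshold, 15 lost the call, 7 gained one and 7 were reversed, all 7 under the removal of no-UVB males 3 and 4, and all 7 were values not called in the comparison or, for *Tchh* in males, called narrowly. That removal, added after seeing the data, gave 0 members lower in males and turned the male response of *Flg2* to 0.04 and of *Tchh* to 0.00, the interaction of *Flg2* to 0.06 and of *Tchh* to 0.29, and the difference between no-UVB males and females to -0.42 for *Hrnr*, -0.22 for *Tchh* and -0.15 for *Tgm1*. In the interaction *Tgm3* lost its call (1.11, adjusted p = 0.117) and *Tgm1* (0.87, adjusted p = 0.0314) and *Casp14* (1.36, adjusted p = 0.0966) gained one, and *Flg* lost its call between irradiated males and females (0.69, adjusted p = 0.1). The member counted lower in males, *Tchh*, was also lost (0 lower) with each gene of at least 1 count, at an adjusted p under 0.05 and with apeglm shrinkage. The interaction held 5 members with DESeq2's Wald test and 1 with each gene of at least 1 count. The lower call of *Flg2* in irradiated males went to 0 with DESeq2's size factors, with reads of both strands, with TMM without the 100 most abundant genes, each gene of at least 1 count and thinning. The causes were not tested.

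With 1 mouse left out, the members lower in males numbered 0 to 1, those with a stronger male response 1 to 4, those higher in no-UVB males 0 to 1, those lower in no-UVB males 0 to 1, and those lower in irradiated males 0 to 1. Reversals were confined to values that were not called. The female response of *Flg2* ran from -0.16 to 0.03, the interaction of *Loricrin* from -0.04 to 0.15, the male minus female difference without UVB from -0.10 to 0.22 for *Hrnr*, -0.02 to 0.21 for *Tgm1* and -0.19 to 0.09 for *Casp14*, and that with UVB from -0.11 to 0.15 for *Tchh*.

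With the replicate number as a block the members lower in males numbered 0 and higher 7, since *Tchh* and *Loricrin* lost their calls (adjusted p = 0.22 and 0.157), and *Rptn* in females passed at 0.86 log2 units (adjusted p = 0.0886). The labels do not say whether the numbers pair the mice.

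Over all genes, interaction calls numbered 478 higher and 740 lower, against 1102 and 938 with DESeq2's Wald test and 229 and 495 with each gene of at least 1 count, and from 163 and 298 without UVB-irradiated male 1 to 835 and 907 without UVB-irradiated female 3. Depth limits *Tgm3* and *Tchh* most, with 53 and 232 reads in their lowest mice.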

Other observations

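Among 10716 genes with a symbol and a mean of at least 10 CPM, those whose log2 CPM followed a member most closely over the 16 mice were found by Pearson's r, given here as a description because the mice share groups and libraries. *Flg* was followed by *Gm11992* (0.990) and *Stfa3* (0.988), a stefin A cysteine protease inhibitor, *Casp14* by *Stfa3* (0.995) and *Blmh* (0.993), and *Hrnr* by *Il36b* (0.992), an interleukin 1 family cytokine, and *Gm11992* (0.991). *Ivl* was followed by *Klk7* (0.993), a kallikrein protease of the outer epidermis, and *Rars1* (0.990), and *Tgm1* by *Rhod* (0.989) and *Tuba1c* (0.987). *Rptn* was followed by *Galnt6* (0.983) and *Tom1l1* (0.976), and *Tgm3* by *Ppp2ca* and *Ints11* (both 0.975).

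For the remaining 3 genes the highest correlations were lower. *Loricrin* was followed by *Dusp22* (0.910) and *Zdhhc9* (0.885), *Tchh* by *Tgfb2* (0.865) and *Plekhg2* (0.849), and *Flg2* by *Zfp667* (0.831) and *Ccdc82* (0.810).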
